A study of Mus musculus with 2 samples.

Results

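The genes described here were 36 DNA repair and checkpoint genes, measured on 2 dye-swapped microarrays of mouse ureter explants treated with BIO. A gene was a member when the name on its biological probes stood on a list, drawn up by role with earlier results of these data known, of 12 genes of homologous recombination, 11 of the Fanconi anemia pathway, 5 of mismatch repair, base excision repair and the PARP family, 4 checkpoint kinases and 4 genes of end joining. The members made up 36 of the 29924 gene names on the array and were covered by 49 of its 39429 biological probes. For 46 of these probes the signal was bright enough to be tested, and each of the 36 members kept at least 1 tested probe.

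Both groups consisted of pooled ureters from wildtype NMRI embryos of undetermined sex, dissected at E12.5 and cultured on membranes for 18 h without serum. The treated explants received 10 µM BIO, an indirubin that inhibits the kinase GSK3 and thereby activates canonical WNT signaling, and the control explants received its solvent DMSO at 2 parts per 1000. Each array compared 1 control pool with 1 BIO pool. In replicate 1 the control RNA carried AlexaFluor555 and the BIO RNA AlexaFluor647, and in replicate 2 the dyes were exchanged. BIO was added to the medium of whole explants, so epithelial and mesenchymal responses were measured together. In such bulk RNA, fewer cells of a type and less RNA per cell cannot be told apart.

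Dividing cells copy their DNA under the watch of checkpoint kinases. ATM and ATR sense breaks and stalled replication forks and signal through CHK2 and CHK1 to hold the cell cycle. Broken chromosomes are mended either by homologous recombination, which copies the sister chromatid and therefore operates in S and G2 phase, or by end joining, which religates ends in all phases. Fanconi proteins unhook crosslinks between the DNA strands and hand the resulting breaks to recombination, while mismatch and base excision repair correct single bases. Many recombination and Fanconi genes are transcribed mainly in S and G2 phase through promoter elements bound by E2F and NF-Y, so that their RNA is known to be more abundant in proliferating than in resting tissue.

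To show the regulatory DNA of the genes with the largest changes, the 250 bases before the annotated start site are given for the called members with the largest rises that had a promoter entry (Fanci, Brca1, Brca2) and for Lig4, the called member with a lower level that had one. The sequences are from RefSeq, build GRCm38.p6, and run 5′ to 3′ toward the start site. Capitals mark an E2F word (TTTCCCGC, TTTGCCGC, TTTCGCGC or TTTGGCGC) or the NF-Y word CCAAT, on either strand. For Lig4, which had more than 1 annotated start site, the upstream one is shown.
Fanci, chr7:79392088-79392337 (plus strand): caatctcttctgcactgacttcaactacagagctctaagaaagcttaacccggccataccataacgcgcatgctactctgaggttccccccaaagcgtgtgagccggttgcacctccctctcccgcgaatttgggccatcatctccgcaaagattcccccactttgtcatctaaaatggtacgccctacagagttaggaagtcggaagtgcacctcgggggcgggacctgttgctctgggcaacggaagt
Brca1, chr11:101551956-101552205 (minus strand): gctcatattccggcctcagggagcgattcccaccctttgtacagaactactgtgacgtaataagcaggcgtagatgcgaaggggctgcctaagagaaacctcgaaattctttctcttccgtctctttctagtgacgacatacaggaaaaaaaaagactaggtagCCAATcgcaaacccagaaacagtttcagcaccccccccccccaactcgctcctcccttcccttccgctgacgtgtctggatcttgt
Brca2, chr5:150522371-150522620 (plus strand): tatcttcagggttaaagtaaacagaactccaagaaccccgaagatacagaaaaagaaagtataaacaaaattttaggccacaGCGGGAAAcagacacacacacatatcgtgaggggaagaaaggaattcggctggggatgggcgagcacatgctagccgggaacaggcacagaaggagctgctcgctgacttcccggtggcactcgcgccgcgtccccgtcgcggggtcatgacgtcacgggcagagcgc
Lig4, chr8:9977681-9977930 (minus strand): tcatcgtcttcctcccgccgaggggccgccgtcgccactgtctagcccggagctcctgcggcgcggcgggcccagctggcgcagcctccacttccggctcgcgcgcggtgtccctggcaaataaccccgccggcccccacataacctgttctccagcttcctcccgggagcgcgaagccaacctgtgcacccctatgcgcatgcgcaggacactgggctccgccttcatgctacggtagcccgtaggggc

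Promoter windows of 300 bases, from 250 before to 50 after the start site, were found for 31 of the 36 members. Prkdc, Xrcc2, Exo1, Rad54b and Fancd2 were not matched. An E2F word occurred in 7 of the 31 members with a window. The same words occurred in 2.26% of all 32851 windows and in 3.94% of the 12940 tested genes with a window. The stretches around these words are shown because they compare the motif between called and uncalled members, with the word in capitals and up to 16 bases on each side. Chek2, Brca2 and Msh6 were called higher with BIO, and Bard1, Fancg, Xrcc6 and Rad51c were not called.
Chek2, chr5:110839815-110839854 (plus strand): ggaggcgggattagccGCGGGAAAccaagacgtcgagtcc
Brca2, chr5:150522437-150522476 (plus strand): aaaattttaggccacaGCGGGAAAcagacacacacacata
Msh6, chr17:87975049-87975079 (plus strand): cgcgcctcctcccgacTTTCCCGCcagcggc
Bard1, chr1:71103158-71103197 (minus strand): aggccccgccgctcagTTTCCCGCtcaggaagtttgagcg
Fancg, chr4:43010330-43010369 (minus strand): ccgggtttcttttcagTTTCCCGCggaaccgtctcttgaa
Xrcc6, chr15:82016307-82016346 (plus strand): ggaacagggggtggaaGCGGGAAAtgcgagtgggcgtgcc
Rad51c, chr11:87404936-87404975 (minus strand): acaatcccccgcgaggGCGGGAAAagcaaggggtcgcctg

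The words lay 168 bases before the start site in Brca2, 152 in Chek2, 209 in Bard1, 52 in Fancg, 46 in Xrcc6 and 5 in Rad51c. In Msh6 the word began at base 16 of the transcript, and a further start site of Rad51c had 1 such word at base 12. E2F words were thus found in 3 of the 10 members called higher and in 4 of the 20 uncalled members with a window. The NF-Y word occurred in 18 of the 31 members, 8 of the 10 called higher and 10 of the 20 uncalled, against 41.9% of the tested genes. The cell cycle homology word TTTGAA occurred in 2 members, against 15% of tested genes, and the TCF/LEF words CTTTGAT and CTTTGAA, the second of which contains TTTGAA, in 2 members, against 7.6%. These matches describe the letters of the windows and were not tested against the calls.

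**Figure D1:**
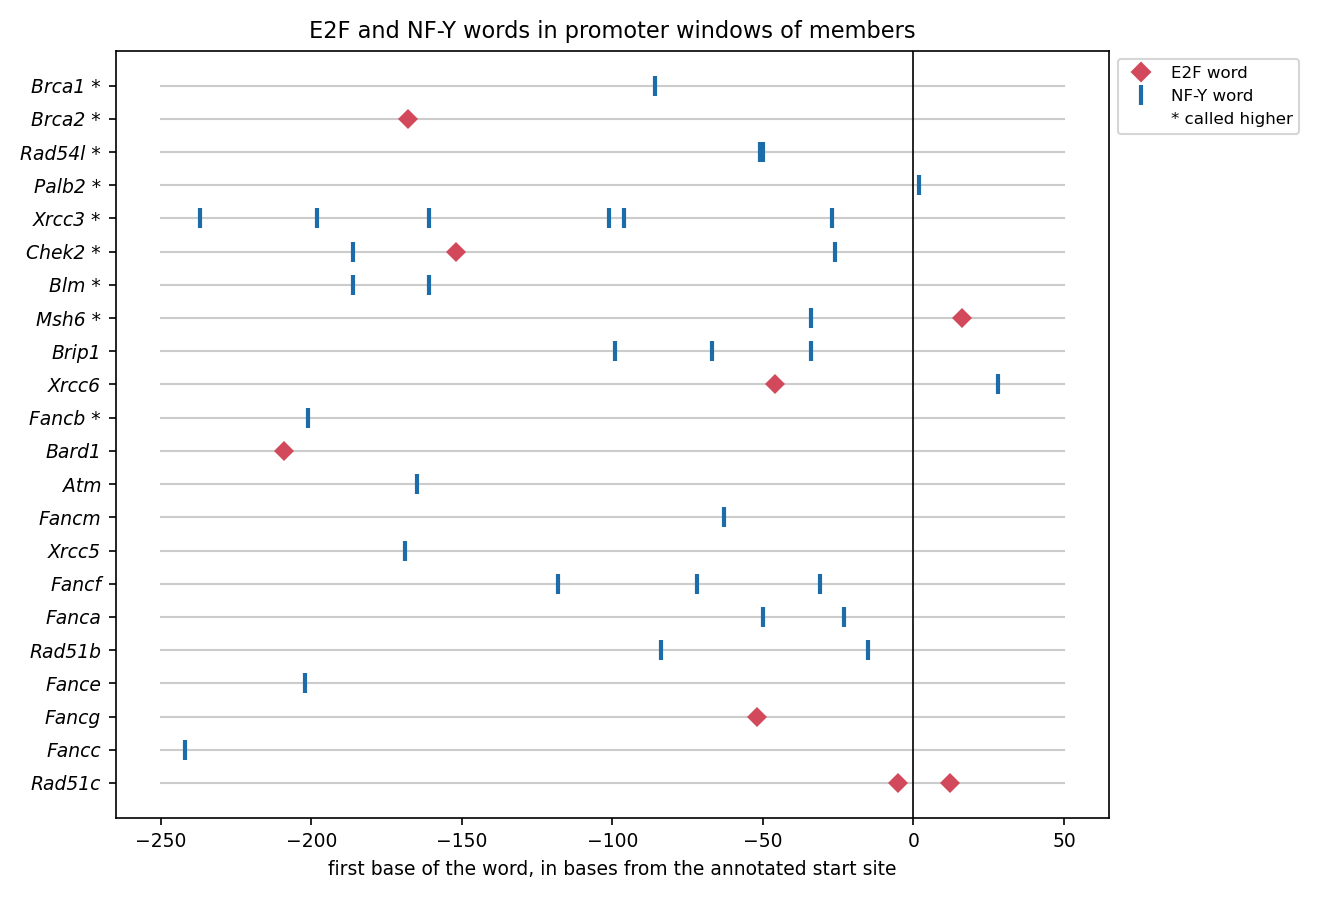
Position of E2F words (diamonds) and NF-Y words (bars) in the promoter windows of the members that hold either, with the distance from the annotated start site in bases on the horizontal axis and members ordered by their log2 ratio from top to bottom. Windows of members with several start sites are drawn on 1 line, and asterisks mark members called higher with BIO by limma. Words of both kinds are seen in called and uncalled members.

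Unless processed signals are named, the values below are log2 ratios of BIO over control, so that 1 is a doubling in BIO, and a gene was called when limma gave an adjusted p below 0.05 over all tested probes. Of the 36 members, 14 were called higher and 2 lower with BIO, and 20 were not called. Over all 21598 genes tested, 9.14% were called higher and 14.8% lower. With median centering in place of loess, 9 members were called higher and 0 lower. The share of all genes called was not counted in that setting, so these 2 counts have no background beside them. The median log2 ratio of the members was 0.30, with 0.29 on replicate 1 and 0.27 on replicate 2, and that of all genes tested was -0.008. The ratio was positive on both arrays for 27 members, negative on both for 4 and of opposite sign for 5. Over all genes tested, 34.7% were positive on both arrays.

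The counts differed between the roles, a difference that was not tested. Called higher were 8 of the 12 recombination genes, 3 of the 11 Fanconi genes, 2 of the 5 mismatch, excision and PARP genes and 1 of the 4 checkpoint kinases, but none of the end joining genes, of which 2 of 4 were called lower. A stricter rule without a test asked on each array for an intensity of at least 100 in the brighter channel. It also asked for at least a 2-fold ratio of the processed signals in place of the loess-normalized ratios. Signals below 15 were set to 15, and the ratios of each array were divided by their median over all biological probes. By this rule 5 members were higher (Exo1, Fanci, Rad54b, Brca1 and Fancd2) and 0 were lower, where 1.04% and 2.04% of all genes tested were higher and lower. The study gave such cut-offs for its other arrays. At a minimum of 1.5-fold, 12 members were higher, against 3.39% of all genes tested.

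**Figure D2:**
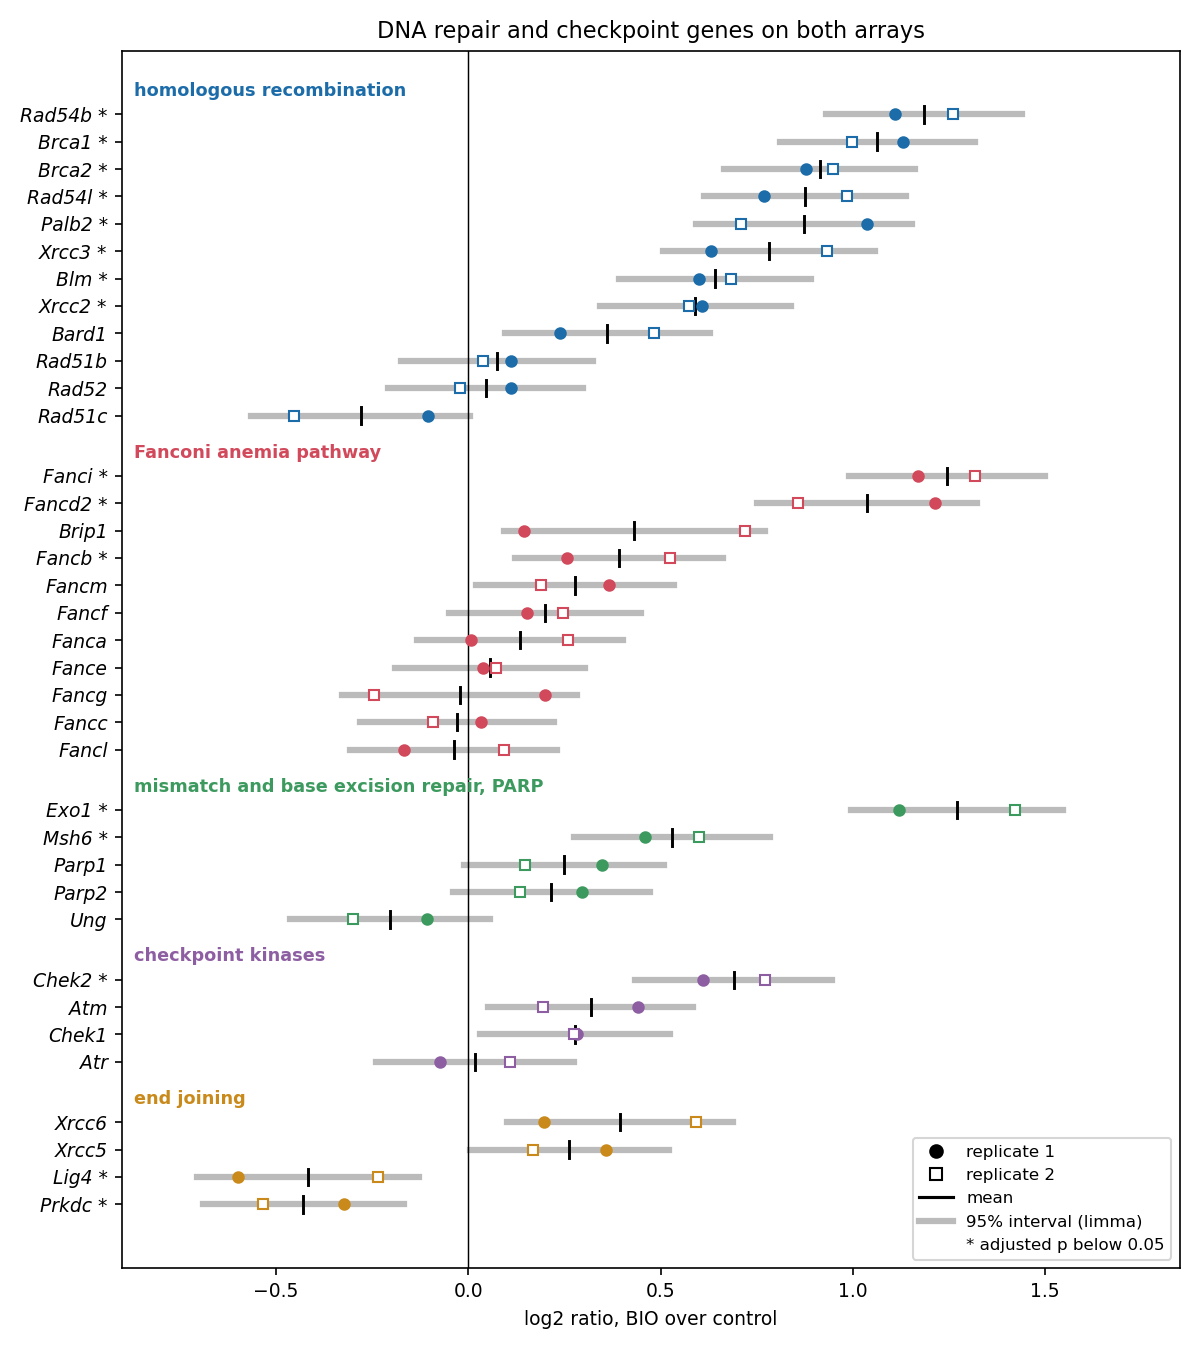
Log2 ratio of BIO over control (horizontal axis) of the 36 members, grouped by role and ordered by their mean. Circles are replicate 1, squares replicate 2, black ticks the mean of both arrays and grey bars the 95% interval of limma, and asterisks mark an adjusted p below 0.05. The called recombination genes lie to the right of 0 on both arrays, and Lig4 and Prkdc lie to the left on both.

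The recombination genes had a median log2 ratio of 0.71. Rad54b, which encodes a DNA translocase of the SNF2 family, had a log2 ratio of 1.11 on replicate 1 and 1.26 on replicate 2, and its fold change of 2.27 was the largest of this group (SE of the log2 ratio 0.11, adjusted p = 0.00027 by limma). Brca1, the tumor suppressor that promotes the resection of broken ends, was at 1.13 and 1.00 on the arrays, a 2.09-fold rise (SE 0.11, adjusted p = 0.000402 by limma). Its processed signals were among the dimmer ones, 141 in control and 374 in BIO explants on replicate 1 and 167 and 374 on replicate 2. For both genes the 2 arrays gave similar ratios. Which of them was the highest of the group depended on the processing. With the processed signals Brca1 was at 1.28 and Rad54b at 1.24, and in the deposited score at 1.29 and 1.20.

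Brca2, a tumor suppressor needed for recombination, and Palb2, which bridges BRCA1 and BRCA2, rose together. Brca2 was at 0.88 on replicate 1 and 0.95 on replicate 2 (1.88-fold, SE 0.11, adjusted p = 0.000785 by limma). Palb2 was at 1.04 and 0.71 (1.83-fold, SE 0.12, adjusted p = 0.00172 by limma), and a second probe of it gave 0.93. Bard1, whose product is the obligate partner of BRCA1, was at 0.24 and 0.48 and was not called (mean 0.36, 95% interval 0.10 to 0.63, adjusted p = 0.0567 by limma). The 3 tested probes of Bard1 ranged from 0.09 to 0.36 and none was called.

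Rad54l, a DNA translocase that acts in recombination, was at 0.77 and 0.98 on the arrays (1.84-fold, adjusted p = 0.0012 by limma). The values of Xrcc3, Xrcc2, Rad51b and Rad51c, which all act in strand exchange, were split. Xrcc3 was at 0.63 and 0.93 (1.72-fold, adjusted p = 0.00273 by limma) and Xrcc2 at 0.61 and 0.57 (1.51-fold, adjusted p = 0.00602 by limma), whereas Rad51b was at 0.11 and 0.04 and Rad51c at -0.11 and -0.45, neither of them called. The Rad51c probe is placed on an Ensembl transcript and not on a RefSeq one. Blm, the Bloom syndrome helicase that dissolves recombination intermediates, was at 0.60 and 0.68 (1.56-fold, adjusted p = 0.00425 by limma). Rad52, an annealing factor, was at 0.11 and -0.02, with a 95% interval of -0.21 to 0.30 for its mean.

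Of the Fanconi genes, the highest were the pair that forms the ID2 clamp on damaged DNA. Fanci was at 1.17 on replicate 1 and 1.32 on replicate 2 (2.37-fold, SE 0.11, adjusted p = 0.000218 by limma), with processed signals of 860 in control and 2039 in BIO explants on replicate 1 and of 959 and 2502 on replicate 2. The Fanci probe lies at chr7:86595076-86595135 on the plus strand of mm9, the build of the array's annotation. Fancd2 was at 1.21 and 0.86 (2.05-fold, SE 0.12, adjusted p = 0.000829 by limma). For both genes on both arrays the BIO channel was the brighter, whichever dye it carried.

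The ubiquitin ligase core complex that acts on this clamp did not share that range. Fancb, one of its subunits, was at 0.26 and 0.52 and lay just inside the threshold (1.31-fold, adjusted p = 0.0453 by limma). The other measured subunits Fanca, Fancc, Fance, Fancf, Fancg and Fancl, of which the last is the catalytic one, had mean ratios between -0.04 (Fancl) and 0.20 (Fancf), and none was called. Fancc, Fancg and Fancl had opposite signs on the arrays. The upper ends of their 95% intervals lay between 0.22 (Fancc) and 0.28 (Fancg). Fancm, the translocase that anchors the complex, was at 0.37 and 0.19 (adjusted p = 0.113 by limma). Brip1, the helicase that binds BRCA1, was at 0.14 and 0.72, the widest gap between the arrays in this group, and was not called (adjusted p = 0.0691 by limma).

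**Figure D3:**
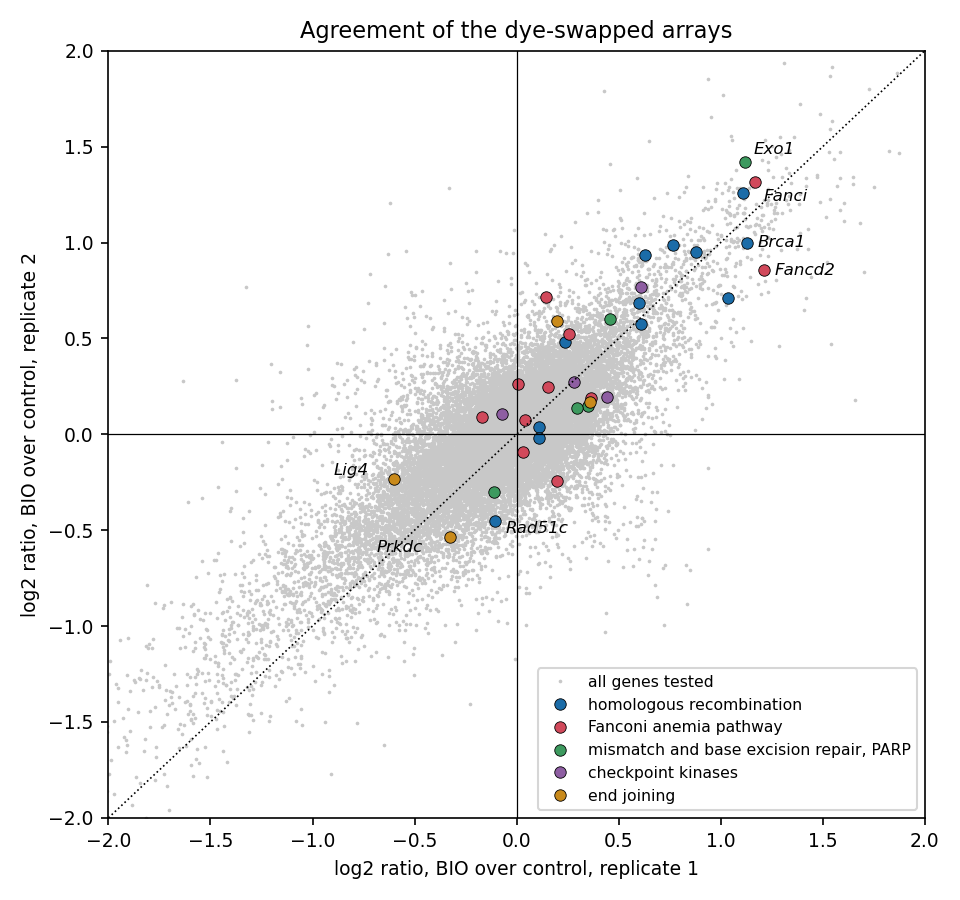
Log2 ratio of BIO over control on replicate 1 (horizontal axis) and replicate 2 (vertical axis) for all genes tested (grey) and the members, coloured by role, with both axes drawn from -2 to 2 and genes beyond that not shown. The dotted line marks equal ratios. Most members lie in the upper right quadrant, and Lig4, Prkdc, Rad51c and Ung in the lower left.

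In the small group of mismatch, excision and PARP genes, 2 stood above the rest. Exo1, the exonuclease of mismatch repair that also resects broken ends, had the highest ratio of all members, 1.12 on replicate 1 and 1.42 on replicate 2 (2.41-fold, SE 0.12, adjusted p = 0.000278 by limma). Its probe lies at chr1:177838682-177838741 on the plus strand of mm9. Its rank was 78 from the top among the 21598 genes tested. With the processed signals Fanci was slightly above Exo1, at 1.316 against 1.304, and likewise in the deposited score, at 1.321 against 1.317. The processed signal of Exo1 went from 2291 in control to 5230 in BIO explants on replicate 1 and from 2393 to 6391 on replicate 2. Msh6, which recognizes mismatches, was at 0.46 and 0.60 (1.44-fold, adjusted p = 0.0109 by limma).

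Parp1 and Parp2, which sense strand breaks and build poly(ADP-ribose), were at 0.35 and 0.15 and at 0.30 and 0.13 on the arrays, and neither was called. Ung, the uracil glycosylase of base excision repair, was at -0.11 and -0.30, with a mean of -0.20 and a 95% interval of -0.46 to 0.06. The excision and PARP genes thus had intervals that reached 0.

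Among the 4 checkpoint kinases, Chek2 was called. Chek2 encodes CHK2, the effector kinase downstream of ATM, and was at 0.61 and 0.77 (1.61-fold, SE 0.11, adjusted p = 0.00338 by limma), a call that was lost with median centering (0.57, adjusted p = 0.0646). Chek1, which encodes the effector kinase downstream of ATR, was at 0.28 and 0.27 (adjusted p = 0.102 by limma), and was called with the processed signals (0.50, adjusted p = 0.0492). Its processed signals were low, 40.0 and 58.7 in control and BIO explants on replicate 1 and 45.6 and 61.9 on replicate 2. Atm was at 0.44 and 0.19 (adjusted p = 0.0857 by limma), and a second probe of it gave a mean of 0.33 against 0.32. Atr was at -0.07 and 0.11, with a 95% interval of -0.24 to 0.28 for its mean.

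Of the 4 end joining genes, 2 were called lower and 2 had positive ratios without a call. Lig4, the ligase that seals the ends, was at -0.60 and -0.23, a 1.33-fold lower level with BIO (SE 0.13, adjusted p = 0.0456 by limma). Prkdc, which encodes the catalytic subunit of the DNA-dependent protein kinase, was at -0.32 and -0.53, a 1.35-fold lower level (SE 0.11, adjusted p = 0.029 by limma). The mm9 positions of their probes are chr8:9970290-9970349 for Lig4, on the minus strand, and chr16:15839317-15841922 for Prkdc, on the plus strand. Xrcc5 and Xrcc6, which encode the KU80 and KU70 subunits that bind the ends first, were at 0.36 and 0.17 and at 0.20 and 0.59, and were not called (adjusted p = 0.134 and 0.0588 by limma). With the processed signals and with median centering, 0 members were called lower, although the ratios were of similar size. These were -0.39 and -0.49 for Lig4 (adjusted p = 0.111 and 0.131 by limma) and -0.40 and -0.53 for Prkdc (adjusted p = 0.0944 and 0.0903 by limma). The members nearest to the threshold of adjusted p were Fancb and Lig4 inside it and Bard1 and Xrcc6 outside it.

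The other repair and checkpoint genes on the array, 85 of 87 listed, gave the surroundings of these members. Of them, 35 were called higher and 1 lower, and their median log2 ratio was 0.26. The list of checkpoint sensors and mediators had the largest share, 14 of 17, with Cdc25c, a phosphatase that triggers mitosis, at 1.14 and Clspn, the adaptor of CHK1 at forks, at 1.00. That list also held the cell cycle regulators Wee1, Cdc25a, Cdc25b and Cdc25c, which are neither sensors nor mediators. All of these but Cdc25b were called higher. Of further recombination and resection genes 11 of 18 were higher, led by Eme1, a subunit of a junction nuclease, at 1.19 and Polq, at 0.95, which was listed here for its use of resected ends although its product performs a form of end joining. Ube2t, the ubiquitin conjugating enzyme of the Fanconi pathway, was at 1.12 and Usp1, which removes that ubiquitin, at 0.99, while Wdr48, the cofactor of USP1, was the gene called lower at -0.59. These genes made 2 higher and 1 lower of 5 crosslink repair genes.

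The shares called higher were smaller in the remaining repair routes, from 27.8% for base excision and single-strand repair to 7.14% for nucleotide excision repair. Over all genes tested the share was 9.14%. Of the base excision and single-strand repair genes, 5 of 18 were higher, led by the glycosylase Neil3 at 1.06 and the flap nuclease Fen1 at 0.70, 1 of 6 further mismatch repair genes was higher (Pms1, 0.64), and 1 of 7 further genes listed under end joining was higher (Rif1, 0.44). Of the nucleotide excision repair genes, which remove bulky lesions, 1 of 14 was called higher, and the list's median was 0.04. No difference between the lists was tested.

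**Figure D4:**
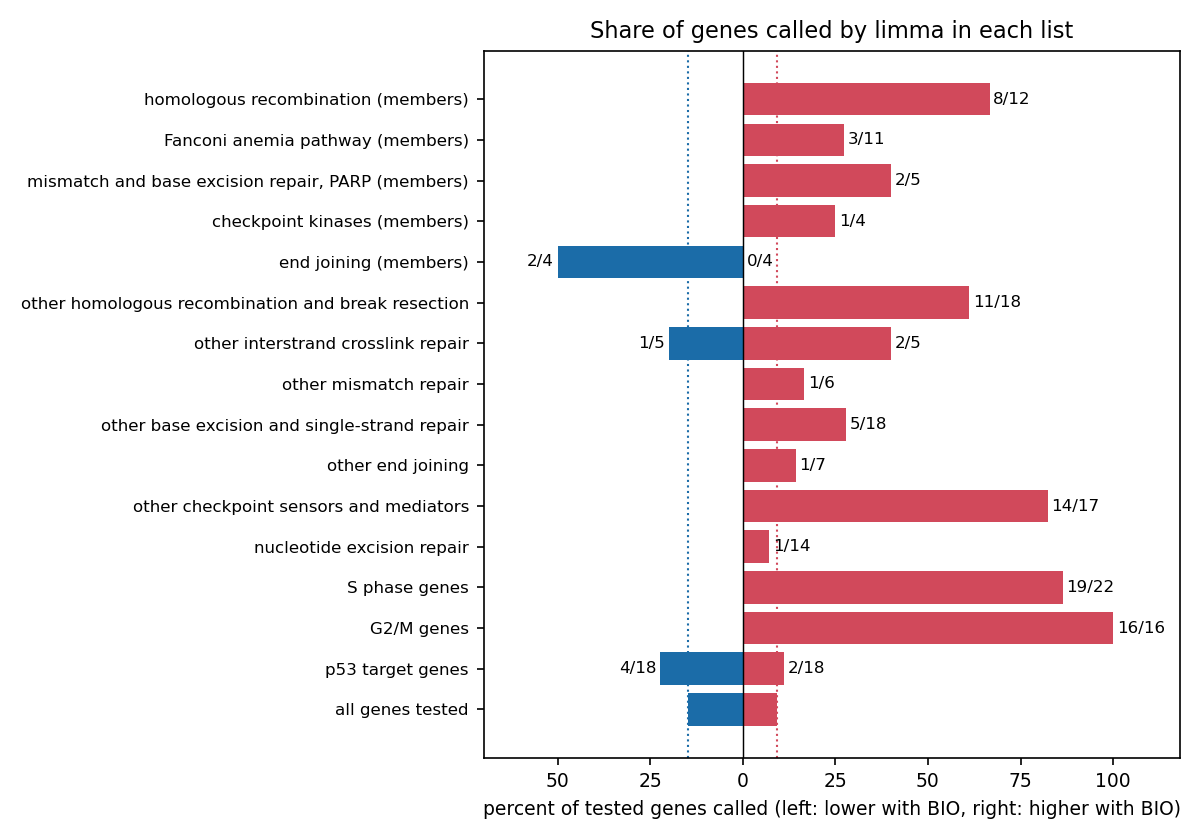
Percent of the tested genes of each repair, checkpoint, proliferation and p53 target list that limma called higher (right, red) or lower (left, blue) with BIO, with the number called of the number tested beside each bar. Dotted lines mark the shares over all genes tested, 9.14% higher and 14.8% lower. Cell type markers are not drawn. The shares called higher run from 0 of 4 end joining members to 16 of 16 G2/M genes.

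Most of the listed proliferation genes were called higher with BIO. Of 22 S phase genes, 19 were called higher with a median log2 ratio of 0.71, led by Prim1 at 1.10, Pola1 at 1.03 and Cdt1 at 0.98, and all 16 G2/M genes were higher with a median of 1.08, led by Cenpe at 1.41, Kif11 at 1.27 and Aurkb at 1.25. Beside these, the medians of the member groups were 0.71 for recombination, 0.30 for checkpoint kinases, 0.25 for mismatch, excision and PARP genes, 0.20 for Fanconi genes and -0.08 for end joining. The summed processed signal of the G2/M genes went from 57926 and 65762 in the control pools to 124995 and 139812 in the BIO pools, and that of the 36 members from 101838 and 107981 to 122430 and 125321. Bright probes weigh most in such a sum. Among the members these included the uncalled Rad51c, at 22141 and 21741 in the control pools, and Ung, at 14471 and 15239. The part of the proliferation genes in the members' ratios was not tested.

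Targets of the transcription factor p53, which DNA damage signaling activates, had a median of -0.05 against -0.008 over all genes. Of 18 such genes, 2 were called higher and 4 lower. These shares of 11.1% and 22.2% stood beside 9.14% and 14.8% of all genes tested. Cdkn1a, the inhibitor of cyclin-dependent kinases, was at 0.99 and Pmaip1, a pro-apoptotic gene, at 0.88. Fas, a death receptor, was at -1.15, Plk2, a stress-induced kinase, at -0.88 and Trp53inp1 at -0.68. The targets named thus lay on both sides of 0.

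**Figure D5:**
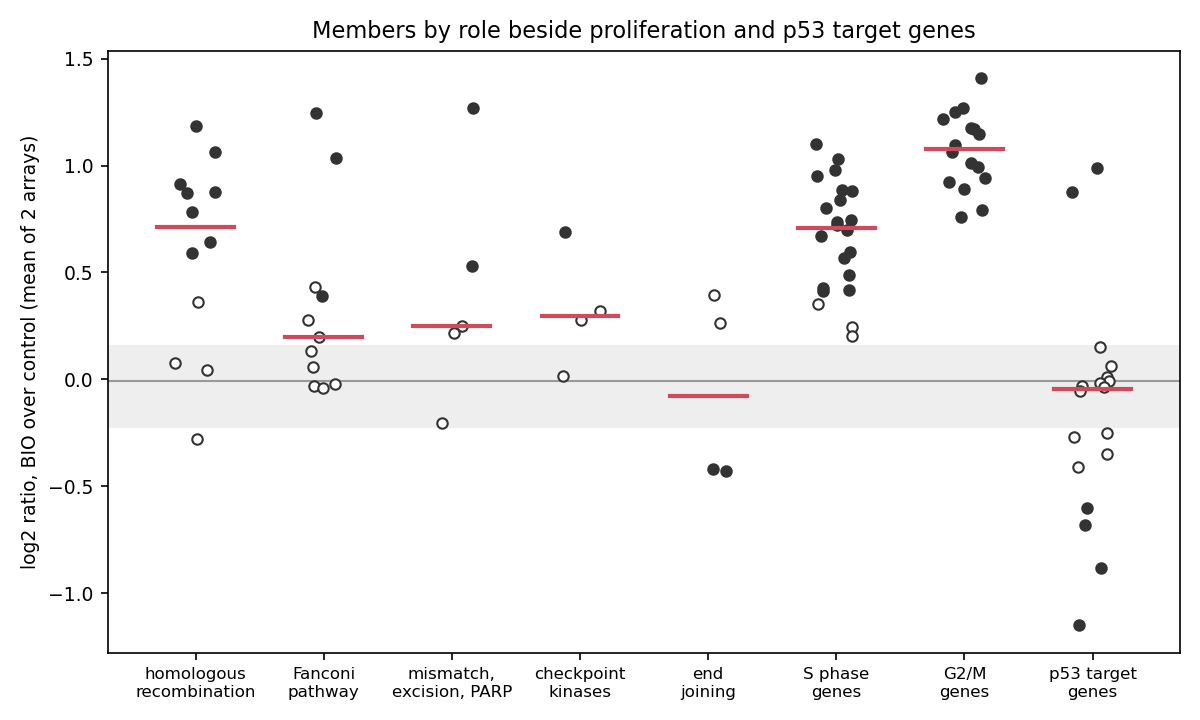
Mean log2 ratio of BIO over control (vertical axis) of each gene in the 5 member groups and in the S phase, G2/M and p53 target lists. Filled points were called by limma and open points were not, red lines are medians, the grey band spans the quartiles of all genes tested (-0.22 to 0.16) and the grey line is their median. The 8 called recombination members lie between 0.59 and 1.18, and the G2/M genes between 0.76 and 1.41.

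The explants were checked against markers of their cell types, and these moved as well. Markers of the ureteric mesenchyme were called lower in 6 of 8 cases (median -0.67) and those of the ureteric epithelium in 4 of 8 (median -0.58), and all 16 were well above background in both groups. All 8 endothelial markers fell (median -2.01), with a summed processed signal of 25243 and 29916 in the control pools and 4638 and 8691 in the BIO pools. Of the 6 macrophage markers 4 fell, as did 2 of the 4 markers of neural crest derivatives, and 1 of 6 kidney mesenchyme markers, Wt1, was higher. No marker was at 0. The part of these changes in the members' ratios was not tested. Over all genes tested the arrays correlated with a Pearson's r of 0.81 across genes, which are not independent replicates, and the median SE of a log2 ratio was 0.11.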

How the data were processed

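Per the file headers, the authors quantified Agilent 2-color arrays with Feature Extraction, version 10.7.3.1 in the submitters' processing notes. The deposited scanner tables hold mean and background intensities, left uncorrected, and processed signal intensities, which the software had background-subtracted and dye-normalized. They also hold flags for outlier and well-above-background spots. The authors further deposited 1 score per probe and array, of unstated making, which followed a signed fold change (Spearman's rho with the processed ratio 0.949 and 0.963 across probes). Its centering stays unknown, and its median was 1 on both arrays.

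Mean intensities were corrected with normexp (offset 50) and loess in limma 3.58.1 (R 4.3.3), with control and outlier spots at weight 0. The 4 spots of a probe were averaged, the swapped array was turned, and 28824 probes well above background in 1 group on both arrays were tested against 0, two-sided, with Benjamini-Hochberg adjustment at 0.05. The brightest probe stood for a gene, and the gene counted as tested only when that probe was tested. The prior degrees of freedom were 7.14, so most of the error estimate was shared between probes, and n = 2 arrays limits the precision. Nothing but the labels and the methods' separate pools speaks for independent replicates, so p-values may measure technical spread. No batch beside the dye swap was modelled. The script was tested on simulated data. All members were named, of other lists at most 3 called genes each way (1 called gene of nucleotide excision repair is not reported here), and promoters of at most 3 members each way. Members and lists were chosen with earlier results of these data known. Alternatives were Feature Extraction's processed signals, median centering in place of loess, an offset of 16, no filter on dim probes, the mean of all probes, the deposited score, a 1.5-fold minimum and each array alone.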

Additional observations from a re-analysis of the deposited data

How the results depend on the processing

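Each array pairs 1 control pool with 1 BIO pool, so the test of the ratios is itself paired, and no further replicate block could be added. With median centering in place of loess, 9 of the 14 members stayed called higher (lost: Xrcc2, Blm, Msh6, Chek2 and Fancb), 0 were lower, and 20 in place of 35 other repair and checkpoint genes were higher. Members called lower, 2 here, were 0 with the processed signals, and 1 with an offset of 16 and without the filter on dim probes, with Lig4 lost in each. Fancb was lost in all 4 of these settings. The share of all genes called was not counted in them or with the mean of all probes. The members' counts there therefore cannot be told apart from a change over all genes. Chek1 was gained with the processed signals (adjusted p = 0.0492 by limma). Xrcc6 was gained with the mean of all probes (adjusted p = 0.0455 by limma), where 2 other repair genes were lower. Its log2 ratio stayed at 0.39 there, and that setting was fitted and adjusted over genes in place of probes. With a 1.5-fold minimum the fold rule gave 12 members in place of 5, where the share of all genes was 3.39% in place of 1.04%. The members' median log2 ratio became 0.39 from processed signals, 0.25 under median centering, 0.33 with an offset of 16, 0.28 with the mean of all probes and 0.37 in the deposited table, and ranged from 0.27 to 0.29 when either array was left out. That of the other repair and checkpoint genes was 0.20 with median centering. That of the G2/M genes became 1.16 from processed signals, 1.12 under median centering and 1.15 in the deposited table, and 1.04 to 1.08 on single arrays. That of the p53 targets was -0.15 and -0.038 on single arrays. No member with a call changed sign in any setting, whereas the uncalled Rad51b, Rad52, Fancc, Fancg, Fancl and Atr did in at least 1, and the causes were not tested. Single arrays leave no spread, so these values carry no test. Dim probes such as that of Chek1 are limited by signal over background.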
